A study of Mus musculus with 7 samples.

Results

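Described here are 5 genes that encode parts of the phagocyte NADPH oxidase, in leukocytes of the mouse heart and blood: Cybb, Cyba, Ncf1, Ncf4 and Rac2. They were chosen by gene symbol, and all 5 are among the 27998 genes of the CD45+ libraries and the 31053 genes of the 2 pools. Each was followed in neutrophils and in monocytes/macrophages, across days in the heart and across hashtags in a blood and heart pool.

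The NADPH oxidase of phagocytes moves electrons from NADPH inside the cell across a membrane to oxygen, which makes superoxide. A membrane-bound pair of proteins holds the electron path, and the remaining subunits wait in the cytosol until a stimulus brings them together. Neutrophils and macrophages use the oxidase to kill microbes, and loss of single subunits causes chronic granulomatous disease. In the infarcted heart these cells arrive in large numbers to clear dead tissue.

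All mice were C57BL6/J, males for the CD45+ libraries and the heart pool, and 8 to 10 weeks old for the blood and heart pool. CD45+ heart leukocytes free of a CD45.2 antibody given into the blood came from mice without infarction (steady state, 5 mice) and from mice 1, 3 and 5 days (5 each) or 7 days (3) after infarction by permanent coronary ligation. A step that lowered the number of neutrophils came before the sort of these cells. The heart pool held CD11b+ cells, also free of the antibody given into the blood, from infarcted hearts of day 1 (5 mice), day 3 (5) and day 5 (3), marked by 3 hashtag antibodies and stained with 10 surface antibodies. The blood and heart pool held CD11b+ cells of mice without surgery (3), 1 or 3 days after sham surgery (3 each), and 1 or 3 days after permanent coronary ligation (5 each), under 7 hashtags with 14 surface antibodies. The sorted mix of Ly6G+ and other cells in that pool was set to near equal parts. Which hashtag marks which condition was not at hand, so hashtags are given side by side. Mice of a condition were pooled, so no value has replicate mice.

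The CD45+ libraries gave 522 to 1793 cells each, with 3611089 to 11511763 UMIs (unique molecular identifiers, the counted transcripts). The heart pool gave 4263 cells and the blood and heart pool 9999. Class names were rebuilt from clusters and marker genes. Steady state and day 7 had fewer than 30 neutrophils and give no neutrophil value. Between 3 and 11 barcodes of a matrix also occurred in another matrix. Levels are CPM, a gene's UMIs scaled to a fixed total of UMIs of the class in that library or hashtag, and their 95% exact Poisson intervals cover counting error only. In the day 1 CD45+ library the 15 neutrophil markers summed to 19100 CPM in the monocyte/macrophage class. The other 5 sums of that class on days 1 to 5 gave 437 to 2160 CPM. As an alternative, each cell took the class with the most UMIs per listed marker (its own marker UMIs). In the day 1 CD45+ library the monocyte/macrophage class then held 90 cells in place of 246, and the neutrophil class 394 in place of 216. In neutrophils the 22 monocyte/macrophage markers summed to 929 to 4660 CPM in the CD45+ sums and 1840 to 2040 CPM in the heart pool. The part of these other-class markers in the results below was not tested.

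Where the genes lie is given on GRCm38 by the GENCODE annotation, and all 5 are protein coding. Cybb lies at chrX:9435252-9487771 and Cyba at chr8:122424776-122432930, both on the minus strand. Ncf1 lies at chr5:134220053-134229625 on the minus strand. Ncf4 (chr15:78244801-78262580, plus strand) and Rac2 (chr15:78559167-78572783, minus strand) share a chromosome. The matrices give 1 value per gene, so no exon, intron or UTR is resolved.

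RefSeq promoters of 300 bases (250 before the start and 50 after it, GRCm38.p6) were matched for 3 members, Cybb, Cyba and Ncf1. The sequences of Cybb (chrX:9469275-9469574) and Ncf1 (chr5:134229576-134229875) are shown, both read 5′ to 3′ on the minus strand, as the 2 windows that held matches to a motif of interferon-induced genes. Capitals mark, on either strand, a pair of GAAA runs with any 2 bases between them, the core of the interferon-stimulated response element. The RefSeq start of Cybb lies inside the GENCODE span of the gene.
Cybb: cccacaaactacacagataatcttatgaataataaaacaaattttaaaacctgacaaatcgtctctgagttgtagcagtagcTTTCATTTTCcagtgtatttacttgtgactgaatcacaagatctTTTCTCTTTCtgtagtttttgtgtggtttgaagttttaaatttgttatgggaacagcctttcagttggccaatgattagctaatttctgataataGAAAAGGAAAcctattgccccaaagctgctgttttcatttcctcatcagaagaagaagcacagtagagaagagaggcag
Ncf1: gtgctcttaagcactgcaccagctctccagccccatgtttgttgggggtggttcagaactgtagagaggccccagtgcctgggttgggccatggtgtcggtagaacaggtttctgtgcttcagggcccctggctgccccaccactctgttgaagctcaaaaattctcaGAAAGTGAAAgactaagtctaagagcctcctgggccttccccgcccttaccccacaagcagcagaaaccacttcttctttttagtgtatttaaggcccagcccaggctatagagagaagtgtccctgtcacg
The Cybb window held 3 matches, starting 168, 124 and 29 bases before the start site, and the Ncf1 window held 1, starting 82 bases before it. The Cyba window held none. Of 32851 promoters of the same length, 3.44% held at least 1 match, on both strands as for the other motifs. GAGGAA, a core bound by the myeloid factor PU.1, had 1 match in the Cybb window, none in the others, and was in 28.3% of all promoters. TTGCNNAA, a C/EBP core, was in none of the 3 windows and in 10.8% of all promoters. No searched motifs overlapped, and a match is a run of letters, not a bound site.

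Cybb encodes gp91phox, the catalytic membrane subunit that carries the electrons. It was low in neutrophils and higher in monocytes/macrophages in all 6 heart sums of days 1 to 5. In neutrophils of the CD45+ libraries it stood at 85.2 CPM on day 1, 66.1 on day 3 and 86.0 on day 5, and in the heart pool at 68.3, 102 and 77.7 CPM on the same days. Monocytes/macrophages of the CD45+ libraries gave 311 CPM at steady state and 327, 331, 297 and 328 CPM on days 1, 3, 5 and 7. The heart pool gave 495, 454 and 402 CPM on days 1, 3 and 5. The groups did not overlap, and monocytes/macrophages were 3.45 to 7.24 times higher. These classes came from clusters of the same RNA, so the gap is a description with no test. After each cell was thinned to 1500 UMIs, 4.67% to 15% of heart neutrophils and 33.7% to 50.4% of monocytes/macrophages of days 1 to 5 held a Cybb UMI. Before thinning those shares were 11.9% to 19.4% and 74.4% to 96.4%, at median depths of 2543 to 4333 and 8165 to 29363 UMIs. T cells of day 7, which are not known for this oxidase, held a Cybb UMI in 5.26% of thinned and 12.6% of all cells (median 3727 UMIs), and stood at 38.4 CPM (22.0 to 62.4). Thinned neutrophil shares were 6.02%, 5.19% and 15% in the CD45+ libraries, the last in a sum of 40 cells, and 8.79%, 8.06% and 4.67% in the heart pool, on days 1, 3 and 5. Of these 6 shares, 2 lay at or below the share in T cells of day 7, which come from a library of the older kit. By CPM, the interval of CD45+ neutrophils lay above that of these T cells on day 1 (66.9 to 107). It overlapped that interval on day 3 (43.9 to 95.6) and day 5 (39.3 to 163). A T cell cluster of the blood and heart pool (59 cells) held Cybb at 82.7 CPM (58.5 to 113.5).

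Cyba encodes p22phox, the membrane partner that stabilises gp91phox and docks the cytosolic subunits. It was abundant in both classes. Neutrophils gave 1763, 1702 and 2092 CPM in the CD45+ libraries and 972, 970 and 1098 CPM in the heart pool on days 1, 3 and 5. Monocytes/macrophages gave 2164, 2838 and 2977 CPM in the CD45+ libraries and 1963, 1796 and 2050 CPM in the heart pool. Monocytes/macrophages were higher in 6 of 6 heart sums, by 1.23 to 2.02 times, but the ranges overlapped between experiments. At steady state monocytes/macrophages gave 1104 CPM (1071 to 1137) and on day 7 2218 CPM (2182 to 2255). The steady-state value lay below all 4 values of the CD45+ libraries after infarction, with 1 library and no test.

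Ncf1 encodes p47phox, the organiser that carries the cytosolic subunits to the membrane. It was higher in neutrophils throughout. Neutrophils gave 303, 345 and 535 CPM in the CD45+ libraries and 857, 1022 and 1057 CPM in the heart pool on days 1, 3 and 5. Monocytes/macrophages gave 40.7, 97.3 and 93.1 CPM in the CD45+ libraries and 163, 151 and 147 CPM in the heart pool. The classes did not overlap, with neutrophils 3.54 to 7.44 times higher within a day and experiment. Steady state and day 7 monocytes/macrophages gave 122 and 142 CPM. The kits differ between the experiments, version 2 for the CD45+ libraries and version 3 for the heart pool, so levels were compared within an experiment.

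Ncf4 encodes p40phox, a cytosolic subunit that binds a phagosome lipid. Neutrophils gave 314, 564 and 401 CPM in the CD45+ libraries and 331, 315 and 317 CPM in the heart pool on days 1, 3 and 5. Monocytes/macrophages gave 187, 292 and 201 CPM in the CD45+ libraries and 199, 160 and 138 CPM in the heart pool. Neutrophils were higher in 6 of 6 heart sums, by 1.67 to 2.29 times. Steady state monocytes/macrophages gave 110 CPM and day 7 gave 183 CPM.

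Rac2 encodes the blood-cell GTPase that switches the assembled oxidase on. Neutrophils gave 1265, 1379 and 1051 CPM in the CD45+ libraries and 650, 811 and 884 CPM in the heart pool on days 1, 3 and 5. Monocytes/macrophages gave 323, 364 and 256 CPM in the CD45+ libraries and 249, 247 and 212 CPM in the heart pool. The classes did not overlap, with neutrophils 2.61 to 4.16 times higher. Steady state and day 7 monocytes/macrophages gave 225 and 278 CPM. Rac2 was not limited to myeloid cells: on day 7 it stood at 728 CPM in B cells, 903 in T cells and 898 in NK cells, whereas Ncf1 stood at 90.5, 31.2 and 19.6 CPM in the same cells.

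**Figure D1:**
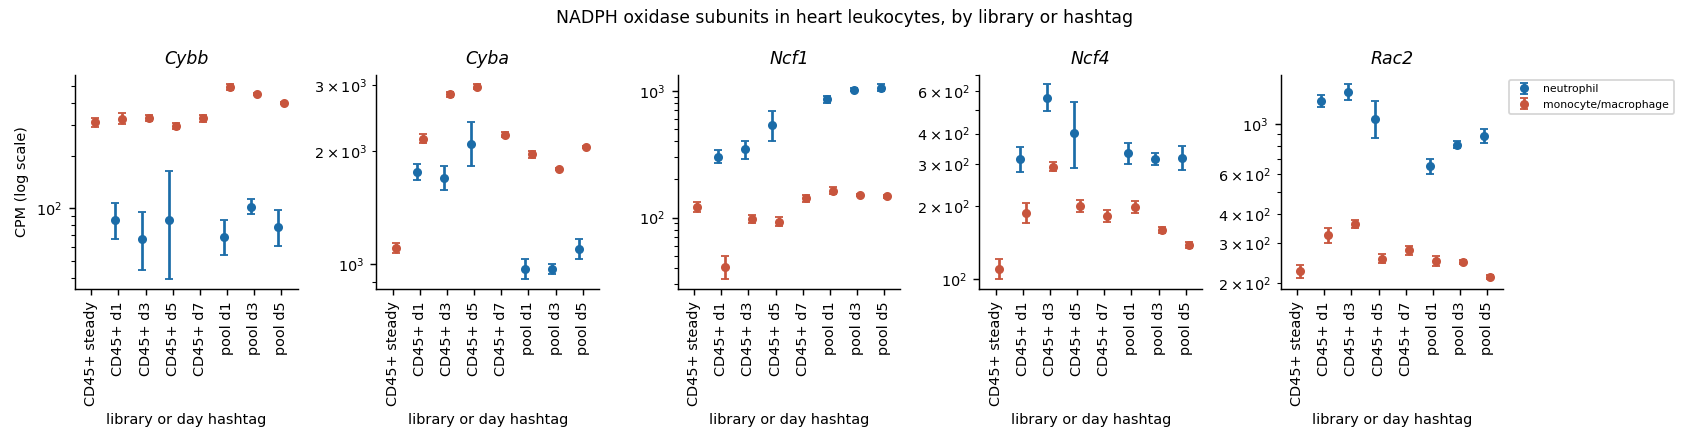
CPM on log axes of each member in neutrophils and monocytes/macrophages, by CD45+ library and by day in the heart pool; bars are exact Poisson intervals. Cybb lies lower and Ncf1, Ncf4 and Rac2 lie higher in neutrophils of each day shown in both classes.

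Whether the class difference held when cells were divided by a surface protein and not by RNA was asked in the heart pool. Cells were split at 264 Ly6G antibody UMIs, a neutrophil surface protein, and UMIs were summed on each side for each of the 3 days. Ncf1 was 664, 650 and 450 CPM on the positive side and 178, 170 and 151 CPM on the negative side on days 1, 3 and 5. Rac2 was 561, 603 and 432 CPM on the positive side and 256, 260 and 217 CPM on the negative side. Ncf4 was 304, 274 and 213 CPM on the positive side and 201, 160 and 138 CPM on the negative side. For each of these 3 genes the positive side was higher on 3 of 3 days, and the sides did not overlap.

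In edgeR's quasi-likelihood test with the day as block, Ncf1 was higher on the Ly6G positive side by 2.05 log2 (SE 0.22, Benjamini-Hochberg adjusted p = 0.000132). Rac2 was higher by 1.36 log2 (SE 0.20, edgeR adjusted p = 0.00101) and Ncf4 by 0.92 log2 (SE 0.19, edgeR adjusted p = 0.00596). So 3 of 5 members passed an adjusted p of 0.05, all higher, where 30.9% of the 10192 genes tested passed, 16.9% as higher and 14.0% as lower. DESeq2 called the same 3 genes. Cybb was 200, 313 and 306 CPM on the positive side and 471, 434 and 402 CPM on the negative side. Its difference of -0.45 log2 (SE 0.17, edgeR adjusted p = 0.0747) did not pass, though the positive side was lower on 3 of 3 days. Cyba was 1208, 1309 and 1667 CPM on the positive side and 1917, 1778 and 2052 CPM on the negative side, a difference of -0.22 log2 (SE 0.19, edgeR adjusted p = 0.382). With total counts in place of TMM scaling, Cybb passed at -0.69 log2 (edgeR adjusted p = 0.0364), while the median of all genes moved to -0.31. With only the lowest 40% and highest 25% of cells by Ly6G within each day, Ncf1 passed. Rac2 (1.14 log2, edgeR adjusted p = 0.0673) and Ncf4 (0.63 log2, edgeR adjusted p = 0.229) did not. On day 5 this highest 25% was less pure than the side above 264 UMIs, and its median was 254 Ly6G UMIs. It held 192 cells of monocyte/macrophage clusters beside 205 of neutrophil clusters. Without day 3, Ncf4 stood at 0.91 log2 and did not pass (edgeR adjusted p = 0.0799).

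The sides of the cut at 264 UMIs are not pure. Of the cells in neutrophil clusters 69.3% were Ly6G positive, and of those in monocyte/macrophage clusters 6.67% were. The positive side held 16, 98 and 60 cells of monocyte/macrophage clusters on days 1, 3 and 5 beside 205, 690 and 130 of neutrophil clusters. Cells count in the sums by their UMIs, and the positive side held 1417715, 5889715 and 2565634 UMIs on these days. All cells of neutrophil clusters, on either side, held 1141206, 4115042 and 901438 UMIs. Most UMIs of the day 5 positive side thus came from cells of other clusters. The part of cells from other clusters in the differences was not tested.

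**Figure D2:**
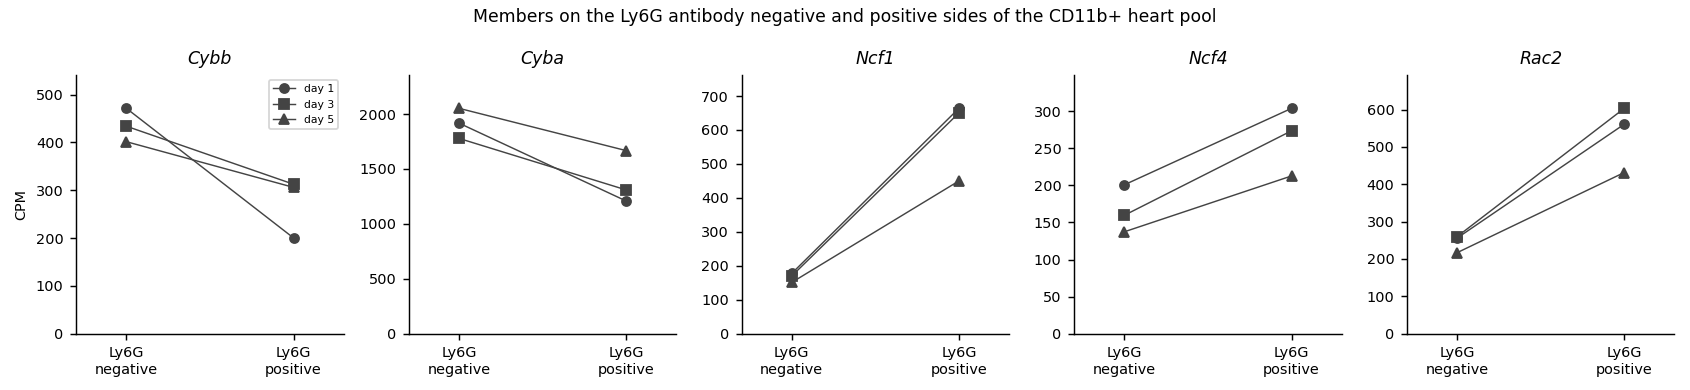
CPM of each member on the Ly6G antibody negative and positive sides of the heart pool, with 1 line per day. The positive side is higher for Ncf1, Ncf4 and Rac2 and lower for Cybb and Cyba on all 3 days, and the test called the first 3 genes only.

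Of the other genes of the oxidase complex, 3 are described here. Rac1, a GTPase related to Rac2, Rap1a, a GTPase found with the membrane subunits, and Cybc1, a chaperone of gp91phox listed under its older symbol BC017643, did not pass on the Ly6G sides, at 0.27, -0.02 and 0.24 log2. The median of the 5 members was 0.92 log2, against -0.10 over all genes tested. The list counts that follow stand against the 30.9% of all genes that passed, and a count near that share is no result about its list. Of 10 genes of the Rac switch 4 passed, all higher: Bcr 1.07, Abr 0.98, Vav1 0.79 and Vav3 0.74 log2. Of 9 tested kinases and lipid-signal genes 2 passed, both higher, Prkcb at 0.83 and Pak2 at 0.73 log2. Of 6 transcription factors known at oxidase genes, Irf1 (1.84), Cebpe (1.56), Cebpb (1.36) and Elf1 (0.59 log2) were higher and Irf8 (-0.83 log2) was lower. Of 9 tested genes that handle superoxide and peroxide, Sod2, Prdx5 and Prdx6 were higher and Prdx1 and Cat lower. None of 3 genes of charge balance and restraint passed, and none of the 9 genes of other NADPH oxidases had enough counts for the test. With total counts alone Ncf1, Ncf4 and Rac2 still passed, with Abr, Cebpb, Cebpe, Irf1, Irf8, Prdx1 and Cat, and the other genes named here as higher did not.

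Whether the members differed between days 1, 3 and 5 was asked within each class, with 1 sum per day from the CD45+ libraries and 1 from the heart pool. None of the 5 members passed in neutrophils, where 2.54% of 6172 genes passed on day 3 against day 1, 7.62% on day 5 against day 1 and 0.0% on day 5 against day 3. On day 5 against day 1 edgeR gave -0.91 (SE 0.44) for Cybb, -0.80 (SE 0.41) for Cyba, -0.45 (SE 0.39) for Ncf1, -0.85 (SE 0.40) for Ncf4 and -0.89 log2 (SE 0.43) for Rac2. Their edgeR adjusted p-values ran from 0.203 to 0.513, with Ncf4 the 1 member at an unadjusted p under 0.05, and DESeq2 called 0 members. On day 3 against day 1 the changes ran from -0.70 to -0.27 log2. The direction turned with the scaling: with total counts alone, day 5 against day 1 ran from 0.07 for Cybb to 0.57 log2 for Ncf1, while the median of all genes moved to 0.90. All 5 members lay below that median. Without the heart pool sum of day 1, Cybb passed at -1.44 log2 (edgeR adjusted p = 0.0369).

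None of the 5 members passed in monocytes/macrophages, where 0.774% of 10594 genes passed on day 3 against day 1, 10.2% on day 5 against day 1 and 0.0566% on day 5 against day 3. On day 5 against day 1, Rac2 was at -0.54 log2 (SE 0.17, edgeR adjusted p = 0.0875) and Cybb at -0.48 log2 (SE 0.15, edgeR adjusted p = 0.0906). These were the 2 members at an unadjusted p under 0.05, and DESeq2 called 0 members. Both were lower in both experiments, Rac2 by -0.65 and -0.44 log2 and Cybb by -0.45 and -0.51 log2 in the CD45+ libraries and the heart pool. Ncf4 was at -0.49 (SE 0.24), Cyba at -0.00 (SE 0.17) and Ncf1 at 0.18 log2 (SE 0.34). Ncf1 went opposite ways in the experiments, by 0.88 log2 in the CD45+ libraries and -0.36 log2 in the heart pool. The CD45+ sum of day 1 gave the lowest Ncf1 of the class, 40.7 CPM, where neutrophils of that library gave 303 CPM. It is also the sum with the high level of neutrophil markers, whose part in these changes was not tested. Without it, Ncf1 stood at -0.31 log2 and Ncf4 passed at -0.75 log2 (edgeR adjusted p = 0.00305). Without the heart pool sum of day 1, Ncf1 at 0.92, Rac2 at -0.55 and Cybb at -0.43 log2 passed. Ncf1 then passed on day 3 against day 1 as well, at 0.99 log2.

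The day effect differed past the threshold between the classes for 0 of 5 members, by the interaction of class and day in edgeR (1 at an unadjusted p under 0.05, Cyba), where 0.0197%, 0.571% and 0.0% of 10154 genes passed in the 3 contrasts. For day 5 against day 1 the interaction ran from -0.90 log2 for Cyba (SE 0.37, edgeR adjusted p = 0.257) to -0.45 log2 for Rac2 (SE 0.43, edgeR adjusted p = 0.643). Different clusters held most of a class on different days. In the heart pool 84.4% of day 1 neutrophils lay in a cluster led by Retnlg and Lcn2, and 83.4% of day 3 neutrophils in one led by Tnf and Icam1. Of day 5 monocytes/macrophages 62.1% lay in a cluster led by Fabp5 and Gpnmb that held fewer than 30 cells of day 1.

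**Figure D3:**
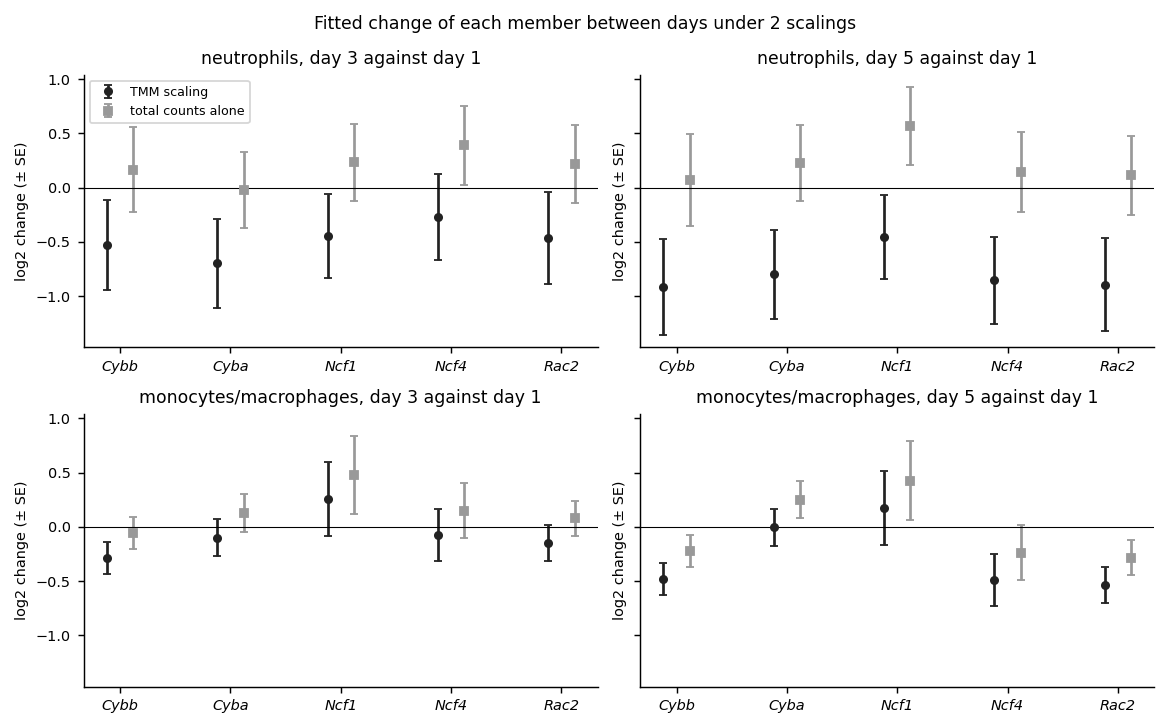
Log2 changes of each member with SE on day 3 and day 5 against day 1, under TMM scaling and with total counts alone. In neutrophils the TMM values lie below 0 and nearly all total-count values above it, and no change passed the test.

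Some genes of the other lists passed. In neutrophils on day 5 against day 1, where 7.62% of all genes passed, the superoxide and peroxide list gave 2 of 7 tested genes, and 4 other lists gave none. Rac1 fell by 1.41 (SE 0.40, edgeR adjusted p = 0.0389), Sod2, the mitochondrial superoxide dismutase, fell by 1.92 and Prdx5, a peroxidase, fell by 2.19 log2. With total counts alone Prdx5 passed, at -1.18 log2, while Rac1 at -0.41 and Sod2 at -0.88 log2 did not. In monocytes/macrophages on day 5 against day 1, where 10.2% of all genes passed, the superoxide and peroxide list gave 5 of 9 tested genes: Gpx3 (2.20) and Cat (1.66 log2) rose, and Sod2 (-2.57), Prdx6 (-1.79) and Prdx5 (-1.55 log2) fell. Hvcn1, the proton channel that balances the charge moved by the oxidase, rose by 1.43 log2 (SE 0.22, edgeR adjusted p = 0.0201). Prex1, a Rac exchange factor, rose by 1.29 log2, and Tiam1, another, fell by 1.45 log2. Pla2g4a, a phospholipase whose lipid product acts on the oxidase, fell by 1.46 log2. Among the transcription factors Cebpe fell by 3.49 and Cebpb fell by 0.70 log2. With total counts alone all of these passed but Cebpb, at -0.45 log2. Neutrophil markers in the class also differed between these days, from 19100 to 437 CPM in the CD45+ libraries and from 2160 to 628 CPM in the heart pool. The 5 erythroid markers summed to 128 CPM on day 1 and 1620 CPM on day 5 in the CD45+ libraries, and to 3.90 and 44.1 CPM in the heart pool. The part of either in these changes was not tested. Within the heart pool alone the values were -3.67 for Cebpe, -1.42 for Sod2, -1.60 for Prdx6 and -1.43 log2 for Prdx5, and 1.92 for Gpx3 and 1.27 log2 for Cat. The 5 members had a median of -0.48 log2 in this contrast and all genes tested -0.02.

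In the blood and heart pool the 7 hashtags are the samples of 1 library. Cybb in monocytes/macrophages was 1579, 1592, 1717, 1523 and 1494 CPM under Hashtags 1 to 5, and 907 and 819 CPM under Hashtags 6 and 7. Neutrophils stayed between 45.0 CPM under Hashtag 7 and 105 CPM under Hashtag 1. The T cell cluster of this pool (59 cells over all hashtags) stood within that range, at 82.7 CPM (58.5 to 113.5). The part of RNA from other cells in these low values was not tested. By cluster, Cybb was 121 CPM (112.8 to 129.3) in neutrophils led by Rsad2, Ngp and Retnlg (1728 cells), with 56.7 to 344 CPM under single hashtags. The neutrophil clusters led by Ifitm1 and by Cxcl2 held Cybb at 50.8 and 53.9 CPM. Ncf1 in neutrophils was 499, 400, 349, 365, 313, 469 and 675 CPM under Hashtags 1 to 7. Its lowest value was under Hashtag 5 and its highest under Hashtag 7. The neutrophil cluster led by Cxcl2 and Il1r2 (541 cells) held Ncf1 at 721 CPM. It had at least 30 cells under only 2 hashtags, at 615 and 873 CPM. The clusters led by Ifitm1 and by Rsad2 ran from 298 to 480 and from 321 to 506 CPM over the 7 hashtags. What cluster shares add to the Ncf1 differences between hashtags was not tested. Rac2 in neutrophils ran from 1238 to 1524 CPM and in monocytes/macrophages from 357 to 494 CPM. Cyba ran from 1248 to 1507 CPM in neutrophils and from 1824 to 1961 CPM in monocytes/macrophages, with no overlap. Ncf4 did not separate the classes here: neutrophils ran from 296 to 366 CPM and monocytes/macrophages from 277 to 361 CPM, with neutrophils higher under 5 of 7 hashtags.

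The clusters of the class differed between these hashtags. A cluster led by Ear2 and Ace had the highest Cybb of the class, at 1737 to 2085 CPM under Hashtags 1 to 5. It made up 10.9% to 39.6% of the class under these and had fewer than 30 cells under each of Hashtags 6 and 7. A smaller cluster (108 cells) with Apoe, Ace and Ear2 among its leading genes held Cybb at 1197 CPM. A monocyte/macrophage cluster led by Cd74, H2-Ab1 and Spp1 made up 55.2% and 64.3% of the class under Hashtags 6 and 7 and 6.37% to 12.4% under Hashtags 1 to 5. In that cluster Cybb was 539 and 512 CPM under Hashtags 6 and 7 and 669 to 1195 CPM under the others. In the cluster led by Chil3 and F13a1 it was 1464 and 1414 CPM under Hashtags 6 and 7 and 1521 to 1730 CPM under the others. Within these last 2 clusters, Cybb was thus lower under these 2 hashtags than under each of the other 5. What this share and this level each add to the class value was not tested.

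**Figure D4:**
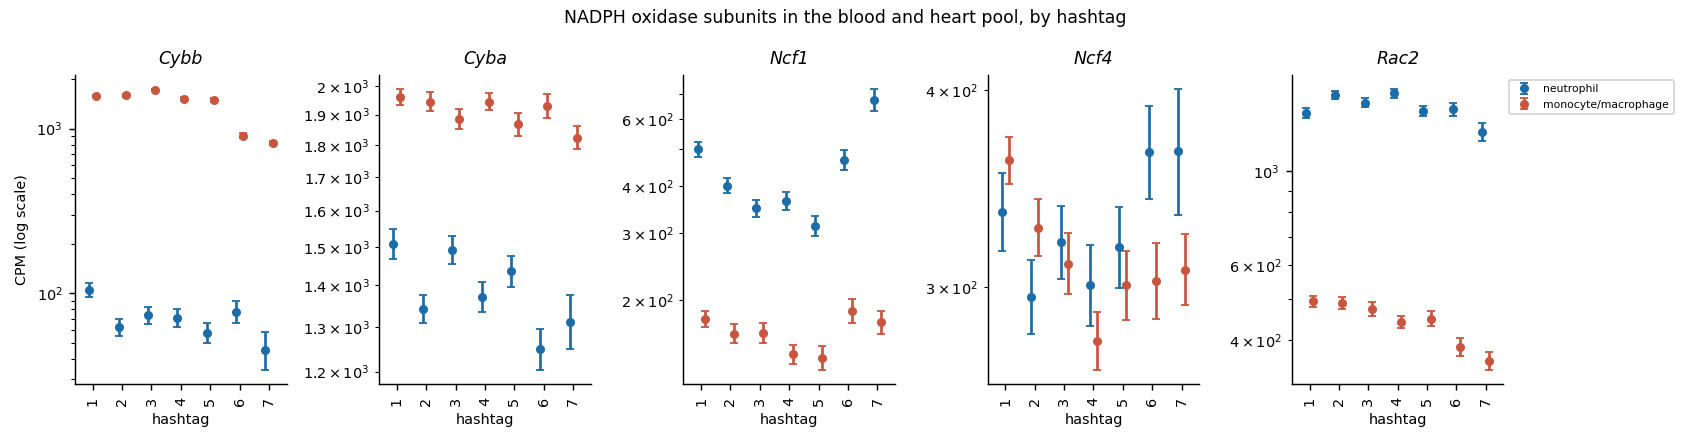
CPM on log axes of each member in both classes of the blood and heart pool, by hashtag; bars are exact Poisson intervals. Cybb of monocytes/macrophages is lowest under Hashtags 6 and 7, and Ncf4 overlaps between the classes.

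Within monocytes/macrophages the members differed between clusters, which were formed with these genes present, so these values carry no test. In the heart pool Cybb was 683 CPM in a cluster led by Arg1 and Saa3 and 668 in one led by interferon-induced genes (Cxcl10, Rsad2). It was 531 CPM in one led by Plac8, Chil3 and Ccr2, 369 in one led by Fabp5 and Gpnmb, and 322 in one led by Stmn1 and Tubb5. In the CD45+ libraries it was 525 CPM in the interferon-led cluster and 825 CPM in one led by Saa3, Fn1 and Hp, where Cybb itself is among the 10 leading genes. The former value pools 1239 CPM on day 1 (30 cells) with 358 CPM on day 5 (35 cells), and on day 5 the Plac8 and Chil3 cluster was as high, at 355 CPM. Ncf1 in the interferon-led clusters was 79.5 CPM in the CD45+ libraries and 167 CPM in the heart pool. The Plac8 and Chil3 clusters gave 90.8 and 186 CPM. Over all clusters of the class Ncf1 ran from 34.4 to 200 CPM in the CD45+ libraries and from 103 to 231 CPM in the heart pool. The other monocyte/macrophage clusters of the CD45+ libraries ran for Cybb from 262 to 298 CPM. Ncf4 was 257 CPM in the Plac8 and Chil3 cluster of the heart pool and 109 CPM in the Fabp5 and Gpnmb cluster. Cyba in the CD45+ libraries was 1160 CPM in a cluster led by Mgl2, Cbr2 and Folr2, which held 96.6% of the class at steady state. With libraries pooled, the others gave 2238 to 3416 CPM. By library the gap did not hold for the interferon-led cluster. It gave 1047 and 2844 CPM in the 2 libraries with at least 30 of its cells. The Mgl2, Cbr2 and Folr2 cluster gave 1076 and 1491 CPM in its 2 such libraries.

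Surface antibodies gave a view that the clusters did not use. Monocytes/macrophages of the heart pool were ranked within a day by each antibody relative to all 10, and the highest and lowest terciles were compared. Ncf4 was 224, 264 and 197 CPM in the Ly6C-high tercile and 166, 106 and 109 CPM in the Ly6C-low tercile on days 1, 3 and 5. Ly6C marks recently arrived monocytes, and Ncf4 was higher with it on 3 of 3 days. Rac2 was 277, 338 and 254 CPM in the high tercile and 224, 202 and 194 CPM in the low tercile, also higher on 3 of 3 days. With Ccr2, the receptor that recruits monocytes, Ncf4 (0.27 to 0.58), Rac2 (0.15 to 0.25) and Cybb (0.09 to 0.59 log2) were higher in the high tercile on 3 of 3 days. Cyba (0.0027 to 0.09) and Ncf1 (0.0045 to 0.28 log2) were near 0 on at least 1 day. By MSR1, a macrophage scavenger receptor, Ncf4 was 178, 104 and 107 CPM in the high tercile and 229, 230 and 177 CPM in the low tercile. Ncf4 and Rac2 were lower in the high tercile of CD64, F4/80, Cx3cr1, CD11c and MSR1 on all 3 days. Cyba moved by -0.20 to 0.18 log2 over the 8 antibodies compared, and Cybb had no common direction with Ly6C, at -0.65 to 0.35 log2. In the blood and heart pool Ncf4 was again higher in the Ly6C-high tercile, under 7 of 7 hashtags (0.22 to 0.59 log2). Rac2 was not, being higher under 4 of 7 hashtags (-0.18 to 0.09 log2). Cybb was lower there in the tercile high in IA-IE, the class II protein, under 7 of 7 hashtags (-1.19 to -0.06 log2), whereas in the heart pool it was higher in that tercile on 2 of 3 days (-0.38 to 0.16 log2). Terciles share a library and hold different clusters, and no test was made.

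**Figure D5:**
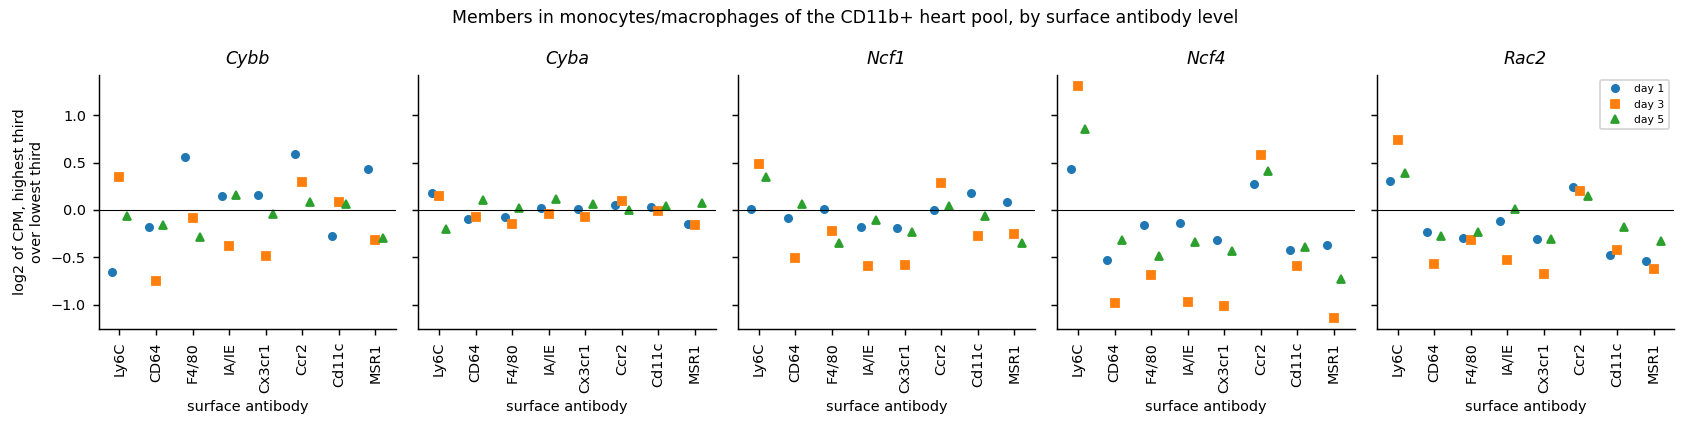
Log2 ratio of CPM between the highest and lowest tercile of heart pool monocytes/macrophages by 8 surface antibodies, with 1 point per day. In this pool Ncf4 and Rac2 lie above 0 for Ly6C and Ccr2 and below 0 for CD64, F4/80, Cx3cr1, CD11c and MSR1, and Cyba stays near 0.

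Genes with the most similar pattern were sought over the 12 sums, after the mean of each class and experiment was removed, among 2315 other genes. The measure was Pearson's r, which is a description because the sums share libraries and their total counts. Ncf4 was close to Pilra (0.945) and Vps37b (0.941). Ncf1 was closest to Got1 (0.96), Tm6sf1 (0.96) and Psme2 (0.956), and Cyba to Got1 (0.917), Ube2r2 (0.898) and Capns1 (0.893). Rac2 was closest to Psmb4 (0.865), Cdc42se1 (0.847) and Cap1 (0.846), and Cybb to Vimp (0.823), Cox17 (0.812) and Ddx3x (0.786). Between members r ran from -0.33 for Cyba and Rac2 to 0.89 for Cyba and Ncf1. The membrane pair Cybb and Cyba stood at -0.03.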

How the data were processed

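Droplet 3' single-cell libraries were deposited as UMI counts per gene and barcode, whole numbers with no normalization. Cell Ranger made them per the submitters' processing notes (for both pools the file headers name version 3.0.2; for the CD45+ libraries it is not given in the sources used here), on mm10. Antibody counts stand in the same matrices.

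Barcodes needed 200 genes or more and no more than 10% of UMIs from mitochondria. Hashtags were called by a mixture of 2 Gaussians, with barcodes of 1 hashtag used, and scrublet removed 18 CD45+ barcodes, under 0.5%, so doublets remain. Clusters came from scanpy 1.11.5 (2000 variable genes, 30 components, resolution 0.5) and were named by marker lists. Sums of at least 30 cells were fitted in edgeR 4.0.16 (filterByExpr, TMM, quasi-likelihood, two-sided; day and experiment as terms), adjusted by Benjamini-Hochberg over all genes, threshold 0.05. DESeq2 1.42.0 was an alternative. With pooled mice, p-values measure only the spread between these sums. On simulated day 5 against day 1 sums, 200 genes were changed by 2 log2. The step recovered 69.5% of them in neutrophils (6172 genes) and 79% in monocytes/macrophages (10594 genes). The simulated sums had a spread of 30% and no difference between experiments. The fitted spread was 30.9% in neutrophils and 19.6% in monocytes/macrophages. Recovery of smaller changes, such as those of the members, was not simulated.

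Members and complex genes are named, but for 1 gene that is not reported here; of the other lists, genes past the threshold were to be named up to the 3 largest per direction, and named genes beyond that were chosen after their values were seen. Members and lists were chosen with earlier results of these data known.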

Additional observations from a re-analysis of the deposited data

Results flagged for a closer look

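In clusters that belong to neither class, 2 levels stood above every level of the classes compared in the same pool. The Ly6G sides of the heart pool were formed from all its cells, such clusters included. An unnamed cluster of 47 cells in the heart pool, led by Saa3, Retnlg and Serpinb2, held Cyba at 2515 CPM (exact Poisson interval 2348 to 2690, 849 UMIs), against at most 2050 CPM in a class and day. An unnamed cluster of 9 cells in the blood and heart pool, with Ccr3 and Alox15 among its leading genes, held Ncf1 at 2792 CPM (1681 to 4361, 19 UMIs), against at most 675 CPM in a class and hashtag. The intervals cover counting error only, and neither level was compared between conditions.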

How the results depend on the processing

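The number of libraries or hashtags in which a member was higher in neutrophils was the same under the 4 alternatives run for levels, except Ncf4 over hashtags, 4 of 7 with 20% mitochondrial UMIs. With that limit 1 heart pool neutrophil cluster went unnamed. The members called in the day contrasts kept a count of 0 except as follows. No paired analysis by replicate number was possible because the groups share none; the fits were blocked by experiment or day. Leaving out 1 sum gave 0 to 1 members called in neutrophils on day 5 against day 1, and in monocytes/macrophages 0 to 1 on day 3 and 0 to 3 on day 5 against day 1, the highest each time without the heart pool sum of day 1. Fitting only the 2 days compared gave 1 member on day 5 against day 3 in monocytes/macrophages (Ncf4). On the Ly6G sides, 1 member passed with the lowest 40% and highest 25% of cells and 1 with no day block, and 2 to 3 without 1 day. Cybb passed there at -0.59 with Ly6G taken relative to all antibodies (chosen after seeing the data) and at -2.03 log2 with RNA clusters as sides.

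Some log2 changes turned sign, none of them past the threshold, and the cause was not tested. In neutrophils on day 3 against day 1, total counts alone gave Cybb 0.165, Ncf1 0.232, Ncf4 0.389 and Rac2 0.22, the class from own marker UMIs gave Ncf1 0.375, Ncf4 0.219 and Rac2 0.244, and 20% mitochondrial UMIs gave Ncf4 0.0367. On day 5 against day 1, total counts gave Cybb 0.0697, Ncf1 0.57, Cyba 0.225, Ncf4 0.144 and Rac2 0.114, and own marker UMIs gave Ncf1 0.384. In monocytes/macrophages on day 3 against day 1, total counts gave Cyba 0.126, Ncf4 0.151 and Rac2 0.0796, own marker UMIs gave Ncf4 0.0203 and Rac2 0.0444, no filter gave Ncf4 0.0221 and no experiment block gave Ncf4 0.063. Cyba on day 5 against day 1 was 0.253 with total counts, 0.0896 with no filter, 0.0423 with no experiment block, 0.0405 with only the 2 days compared, 0.012 with clusters formed without the pathway genes and 0.0486 with own marker UMIs. Without 1 sum, Ncf4 in neutrophils on day 3 ran from -0.673 to 0.147. In monocytes/macrophages against day 1, day 3 ran from -0.244 to 0.994 for Ncf1, -0.24 to 0.105 for Cyba and -0.373 to 0.306 for Ncf4, and day 5 from -0.31 to 0.917 for Ncf1 and -0.12 to 0.205 for Cyba.

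In neutrophils 157 genes on day 3 against day 1 (35 higher) became 419 with total counts (369 higher), 320 with no filter, 57 with 20% mitochondrial UMIs, 45 with own marker UMIs, 0 with no experiment block and 41 to 674 without 1 sum. On day 5 against day 1, 470 (127 higher) became 1200 (1114 higher), 50 with 20% mitochondrial UMIs, 109 with own marker UMIs, 0 with no experiment block and 19 to 1013 without 1 sum. In monocytes/macrophages 82 genes became 4 with total counts, 495 by DESeq2, 523 with no filter, 141 with own marker UMIs, 0 with no experiment block and 7 to 2359 without 1 sum, and 1080 became 1627 by DESeq2, 1691 with no filter, 437 with only the 2 days compared, 0 with no experiment block and 211 to 3286 without 1 sum. On the Ly6G sides 3151 genes became 402 with the extreme cells, 364 with no day block, 4935 with RNA clusters as sides and 1098 without day 3. The interaction gave 2 and 58 genes against day 1, which became 1 and 761 with total counts, and 0 to 277 and 0 to 623 without 1 sum, and the 58 became 101 with clusters formed without the pathway genes. On day 5 against day 3, 0 genes in neutrophils became at most 19 (only the 2 days compared) with every sum kept and 0 to 31 without 1 sum. The 6 genes in monocytes/macrophages became 0 to 1417, highest with only the 2 days compared, and 0 to 1107 without 1 sum. With total counts the split in monocytes/macrophages on day 5 was 623 higher and 349 lower, against 457 and 623. The shallowest sum, CD45+ neutrophils of day 5, held 40 cells and 104690 UMIs.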
